A study of Homo sapiens with 2 samples.

Results

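Metallothioneins are small cysteine-rich proteins that bind zinc, copper and cadmium, and they were read here together with the genes of the zinc response around them. The set was defined by name as 8 genes: the metallothionein genes MT2A, MT1E, MT1F, MT1G, MT1M and MT1X, the transcription factor gene MTF1 and the zinc exporter gene SLC30A1. Of these 8, 6 have a row among the 15159 genes of the gene table. MT1G and MT1M have none and were not analysed here. All 6 listed genes had at least 20 reads in at least 1 library, the minimum used for comparisons.

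When zinc inside a cell rises, MTF1 (metal regulatory transcription factor) binds short DNA motifs called metal response elements and turns on metallothionein genes and SLC30A1. Metallothioneins then hold the metal, and the SLC30A1 protein, also called ZnT1, carries zinc out across the plasma membrane. Metallothionein genes also respond to glucocorticoids and to inflammatory cytokines. In skin, zinc supply and metallothionein are known from keratinocyte growth and wound repair.

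The cells were HaCaT, an epidermal keratinocyte line of human origin that became immortal spontaneously. The vector control was a dish that took up the empty MigR1 plasmid, and the FLI1 dish took up MigR1 with FLI1, a transcription factor of the ETS family, both by lipid transfection with 4 µg of DNA. The medium was changed after 6 hours, and RNA was taken 2 days after transfection. Each group is 1 library. The share of transfected cells is not given in the sources used here, so a few cells with a large difference and many cells with a small one cannot be told apart. Likewise, in bulk RNA, fewer cells of a type and less RNA per cell cannot be told apart. The ratios below compare these libraries, not the conditions: the 95% intervals cover counting error only, and no difference has a replicate check.

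The libraries held 14497105 reads (vector control) and 14677273 reads (FLI1) over all genes. FLI1 itself had 64 reads in the vector control and 2452 in the FLI1 library. All 8 keratinocyte markers fixed for the check of the label were present, at 53.0 to 3147 FPKM. Of 5 or 6 markers each for fibroblasts, endothelium, melanocytes and leukocytes, 2 to 4 have a row, and the fibroblast, endothelial and leukocyte lists each summed to at most 1.23 FPKM in either library. The melanocyte list summed to 0.30 FPKM in the vector control and 3.86 in the FLI1 library, where 1 gene gave 3.64. Of its 4 markers with a row, 1 had at least 20 reads. The part of this list in the results below was not tested. PDGFRB, CDH5, TYRP1, DCT and CD14 were listed at 0 in at least 1 library.

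The listed metallothionein genes lie close together and are near-copies of each other, which matters for how reads are assigned to them. In the GENCODE release 29 annotation of GRCh38, MT2A spans 56608199 to 56609497 on chromosome 16, MT1E 56625475 to 56627112, MT1F 56657694 to 56660698 and MT1X 56682424 to 56684196, all on the plus strand. From MT2A to MT1X this is a stretch of 76.0 kb with 13 annotated metallothionein genes, 9 of them protein-coding. MTF1 (37809567 to 37859620) and SLC30A1 (211571568 to 211578742) both lie on the minus strand of chromosome 1. The coding sequences of the 4 listed metallothioneins, read from the GENCODE transcripts, are shown to make the likeness visible. Capitals mark the 29 of 186 positions at which the 4 genes are not all alike.
MT2A: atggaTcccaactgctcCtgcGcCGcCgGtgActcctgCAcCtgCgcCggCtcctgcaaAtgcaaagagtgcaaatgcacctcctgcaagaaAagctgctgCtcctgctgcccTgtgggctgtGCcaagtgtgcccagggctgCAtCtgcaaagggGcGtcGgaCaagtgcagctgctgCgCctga
MT1E: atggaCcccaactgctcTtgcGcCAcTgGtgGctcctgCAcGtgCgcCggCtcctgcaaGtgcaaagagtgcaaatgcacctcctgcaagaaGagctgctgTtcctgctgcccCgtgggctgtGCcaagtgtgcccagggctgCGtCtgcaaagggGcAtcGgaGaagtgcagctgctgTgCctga
MT1X: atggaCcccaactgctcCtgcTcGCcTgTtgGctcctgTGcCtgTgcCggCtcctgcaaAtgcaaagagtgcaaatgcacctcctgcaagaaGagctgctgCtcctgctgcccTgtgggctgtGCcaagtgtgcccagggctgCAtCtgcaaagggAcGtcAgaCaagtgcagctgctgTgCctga
MT1F: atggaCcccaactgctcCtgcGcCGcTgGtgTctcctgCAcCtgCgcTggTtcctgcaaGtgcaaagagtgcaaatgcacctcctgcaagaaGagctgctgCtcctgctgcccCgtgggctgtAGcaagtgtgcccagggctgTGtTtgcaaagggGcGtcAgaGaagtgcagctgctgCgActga
Pairs of these coding sequences differed at 14 to 21 of 186 bases. MT2A differed from MT1E at 14 bases (92.5% identical) and from MT1X at 14, and the pair furthest apart was MT1X and MT1F (21 bases, 88.7% identical).

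The deposited read counts of these near-copies held no fractions. Over all genes, 84.1% of the vector control values and 84.5% of the FLI1 values were whole to within 0.005 reads. MT2A, MT1E, MT1X, MT1F and SLC30A1 were whole in both libraries, while MTF1 had 622.78 estimated reads in the vector control and 696 in the FLI1 library. At the transcript level, MT1E was split into 2 models with fractions (960.75 and 20.25 reads in the vector control, 723.70 and 19.30 in the FLI1 library), and MT1F in the vector control likewise (20.68 and 2.32), but their sum per gene was whole. So reads were divided between transcripts of MT1E and of MT1F, and the table shows no sign of division between metallothionein genes. Whole counts do not show that each read was placed on its true gene of origin, because the counting tool and its treatment of reads with several matches are not given.

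How much sequence could be confused was measured with words of 75 bases from the main transcript of each gene, looked up in all GENCODE transcripts of other genes. MT2A and MT1F shared 0% of their words. MT1E shared 0.794%, with the pseudogenes MT1JP and MT1P3. MT1X shared 31.6%: 24.5% with AC026461.1, a processed transcript that overlaps it on the same strand (56682470 to 56687807 on chromosome 16), 5.85% with MT1G and 3.46% with the pseudogene MT1XP1. With words of 50 bases the shares were 4.88% for MT2A, 5.34% for MT1E, 3.59% for MT1F and 45.1% for MT1X. MT1X thus had the largest share of common words, and its values below carry that limit. AC026461.1 is a GENCODE entry, and whether it was among the genes counted in these libraries was not checked.

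Levels differed widely within the set and were read from the deposited FPKM, which is scaled for transcript length. MT2A had the highest level, 884 FPKM in the vector control and 1079 in the FLI1 library, which placed it 91st and 73rd among all genes. MT1E had 519.6 and 406 FPKM (145th and 179th). MT1X had 418 and 368 FPKM (178th and 193rd). SLC30A1 (21.1 and 21.0 FPKM), MT1F (10.1 and 10.65 FPKM) and MTF1 (5.77 and 6.70 FPKM) followed far below. The order of the 6 levels was the same in both libraries. Of the neighbours in that order, MT1E and MT1X in the FLI1 library were not separated by counting error (ratio of FPKM 1.10, 95% interval 0.992 to 1.22), while in the vector control MT1E was 1.24 times MT1X (1.13 to 1.37). MT1F and MTF1 in the FLI1 library were barely separated (ratio 1.59, 1.001 to 2.40), as MT1F rests on 23 reads.

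**Figure D1:**
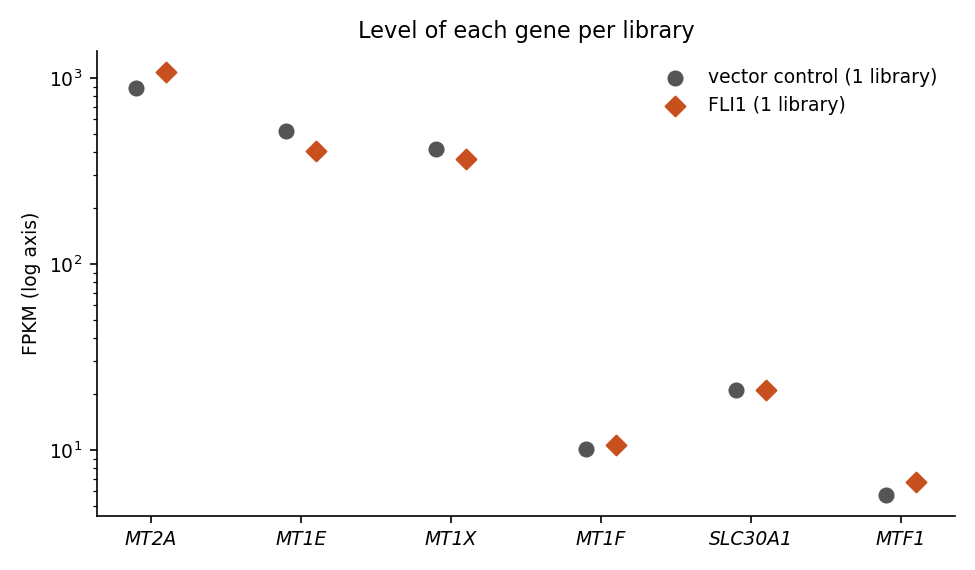
FPKM of the 6 listed genes on a log axis, with 1 point for each library (circles, vector control; diamonds, FLI1). MT2A, MT1E and MT1X sit between 368 and 1079 FPKM, and SLC30A1, MT1F and MTF1 between 5.77 and 21.1.

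The abundant metallothioneins differed between the libraries in opposite directions, and none of the 6 listed genes reached a 2-fold difference. MT2A was higher in the FLI1 library, MT1E and MT1X were lower, and MT1F and SLC30A1 had intervals that included 0. Over all 11659 genes with at least 20 reads, 1.19% were higher by 2-fold or more and 0.480% lower by 2-fold or more, so 0 of 6 is near that background. By the counting interval, 2 of the 6 genes lay above 0 (MT2A and MTF1) and 2 below it (MT1E and MT1X), where 16.5% of all genes lay above and 14.7% below. Intervals narrow as reads rise, and this background reaches down to genes with 20 reads, so it is not matched for depth. With scaling by library total, the genes with an interval beyond 0 split into 1529 above and 2198 below (41.0% above), against 1923 and 1718 (52.8% above) with the TMM scaling used throughout. The median log2 ratio of the 6 genes was 0.01, and that of all genes tested was -0.0036.

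MT2A, the most abundant metallothionein of these cells, had 1678 reads in the vector control and 1980 in the FLI1 library. Its log2 ratio, FLI1 over vector control, was 0.25 (95% counting interval 0.15 to 0.34), or 1.19-fold. Of all genes tested, 11.5% had a ratio at least as high, and 8.37% of those with at least 100 reads.

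MT1E, a metallothionein-1 isoform, had 981 and 743 reads. The log2 ratio was -0.39 (-0.53 to -0.25), which is 1.31-fold lower (1.19 to 1.45). Of all genes tested, 4.92% had a ratio at or below this value, and 2.49% of those with at least 100 reads. The lower value lay in the main transcript NM_175617 (961 and 724 rounded reads, log2 ratio -0.40), while the minor model NM_001363555 had 20 and 19. MT1X, the isoform with the most shared sequence, had 810 and 691 reads, a log2 ratio of -0.22 (-0.37 to -0.07), or 1.17-fold lower. Of all genes tested, 13.2% had a ratio at or below it. MT1F had 23 reads in each library (log2 ratio 0.01, -0.89 to 0.91), and at this depth the counting interval ran from 0.539 to 1.88-fold.

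**Figure D2:**
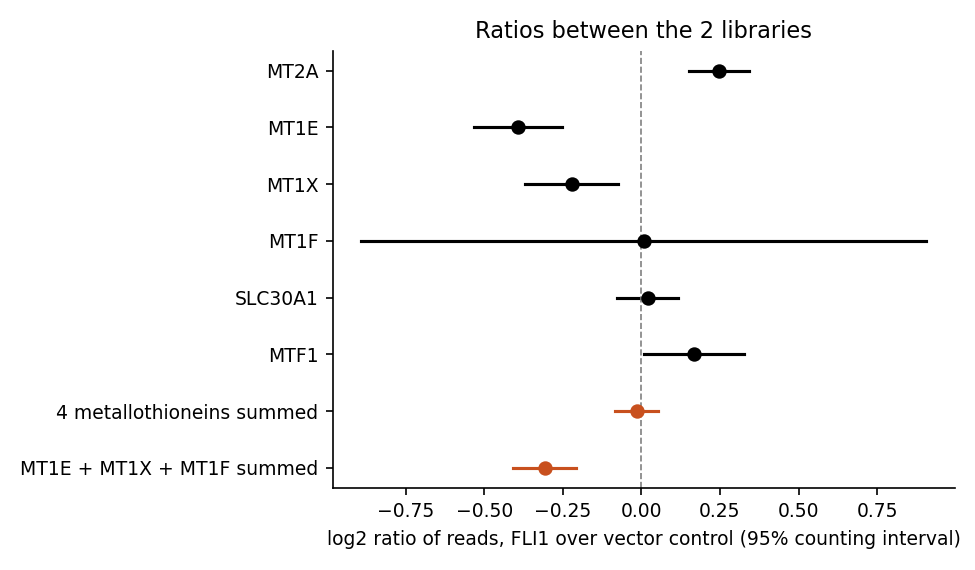
Log2 ratio of reads, FLI1 over vector control, for each listed gene (black) and for sums over metallothioneins (orange); bars are 95% counting intervals and the dashed line marks 0. MT2A (0.25) lies above 0 and MT1E (-0.39) and MT1X (-0.22) below it, and the sum of the 4 metallothioneins lies at -0.02.

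Because the differences ran against each other, the total of metallothionein reads hardly moved. The 4 genes together had 3492 reads in the vector control and 3437 in the FLI1 library, 0.0241% and 0.0234% of all reads. The log2 ratio of the sum was -0.02 (-0.08 to 0.05), so a difference of the sum beyond 1.04-fold higher or 0.944-fold lies outside the counting interval. This sum does not depend on how reads were split among the 4 genes. It does depend on reads shared with genes outside the sum, and all shared words of 75 bases were with such genes. The 3 metallothionein-1 genes alone had 1814 and 1457 reads (log2 ratio -0.31, -0.41 to -0.21).

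What differed was the composition. MT2A made up 48.1% of the 4 genes' reads in the vector control (exact binomial 95% interval 46.4 to 49.7) and 57.6% in the FLI1 library (55.9 to 59.3). MT1E made up 28.1% (26.6 to 29.6) and 21.6% (20.3 to 23.0). MT1X made up 23.2% (21.8 to 24.6) and 20.1% (18.8 to 21.5), and MT1F 0.659% and 0.669%. Shares of summed FPKM were close to these, with MT2A at 48.3% and 57.9%. The intervals of MT2A, MT1E and MT1X did not overlap between the libraries, that of MT1X narrowly (21.8 against 21.5). Shares are parts of a common total, so these are not separate differences. For scale, the counting interval of the ratio lay above 0 for 16.5% of all genes and below 0 for 14.7%. This is a different measure, and how often such shares fail to overlap in other groups of genes was not computed. Set directly against each other, MT2A over MT1E differed by 0.64 on the log2 scale between the libraries (exact conditional interval 0.47 to 0.81), a 1.56-fold difference that does not depend on library scaling. MT2A over MT1X differed by 0.47 (0.29 to 0.64). MT1E over MT1X differed by -0.17 (-0.38 to 0.03), so no difference between these metallothionein-1 genes was detectable at this depth.

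**Figure D3:**
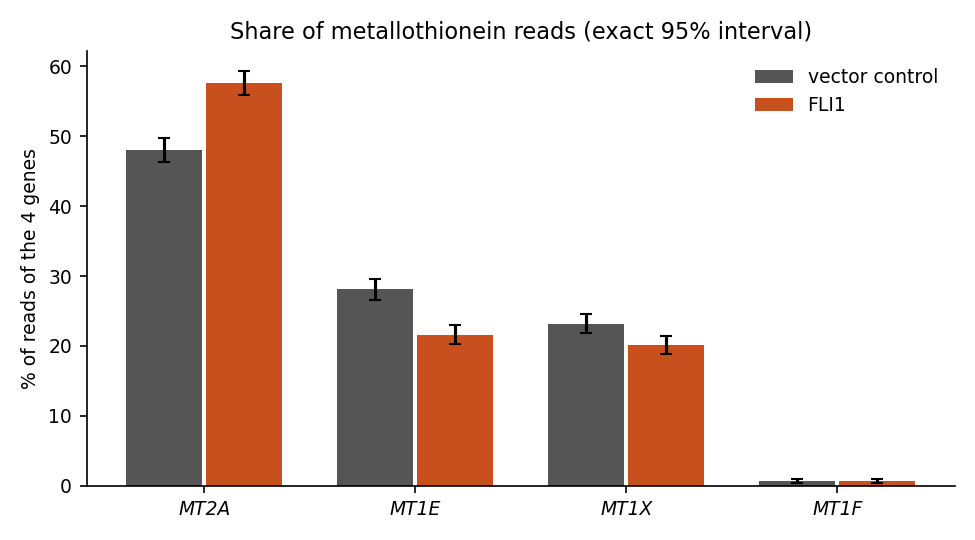
Share of the reads of MT2A, MT1E, MT1X and MT1F that each gene took in each library (grey, vector control; orange, FLI1), with exact binomial 95% intervals as error bars. MT2A stands at 48.1% and 57.6%, and MT1E at 28.1% and 21.6%.

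For these transcripts the deposited FPKM gave slightly different ratios from the reads. For the 4 metallothioneins the log2 ratio of FPKM was higher than that of reads by 0.04 to 0.06. Over all genes tested the median gap was -0.02 (5th to 95th percentile -0.09 to 0.08), a range that takes in these gaps. The directions of MT2A, MT1E and MT1X were the same on both scales (0.29, -0.36 and -0.18 from FPKM).

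MTF1, the zinc-sensing transcription factor that drives metallothionein genes, had 622.78 and 696 estimated reads. The log2 ratio was 0.17 (0.01 to 0.33), or 1.12-fold, an interval that just cleared 0 and included 0 when libraries were scaled by their totals (0.14, -0.02 to 0.30). The table lists 4 transcripts of MTF1. The curated transcript NM_005955 had 615.29 and 612.60 estimated reads (log2 ratio 0.00, -0.16 to 0.17). The 3 predicted models XM_011541491, XM_011541493 and XM_011541494 together had 7.49 and 83.41, a gain of 75.9 reads. The difference of the gene thus lay in the predicted models, and the error of dividing reads among transcripts of a gene is not in these intervals.

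SLC30A1, the exporter that MTF1 controls, had 1716 and 1730 reads. Its log2 ratio was 0.02 (-0.08 to 0.12), so no difference was detectable, and a ratio beyond 0.948 to 1.08-fold lies outside the counting interval. The sign of this ratio turned below 0 with scaling by library total (-0.01).

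**Figure D4:**
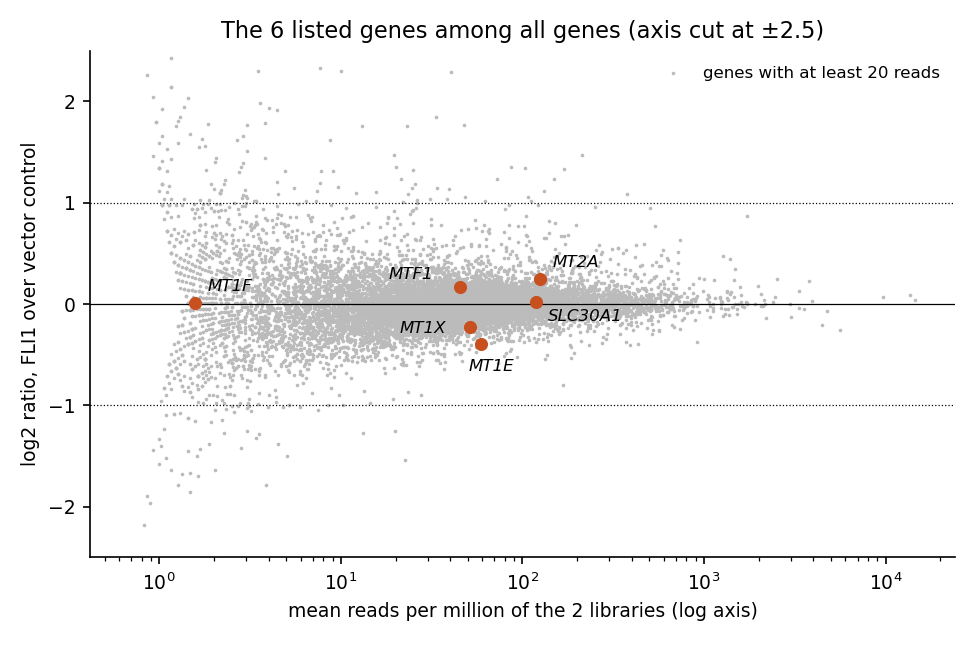
Log2 ratio of reads, FLI1 over vector control, against mean reads scaled to library size (CPM, log axis) for the 11659 genes with at least 20 reads (grey) and the 6 listed genes (orange). Dotted lines mark 2-fold, 23 genes lie beyond the axis limit of 2.5, and all 6 listed genes lie between -0.39 and 0.25.

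The promoters of the set are printed because MTF1 acts through short motifs there, and because MT2A and MT1X carry the opposite differences while SLC30A1 and MTF1 are the other parts of the response. RefSeq promoter windows (250 bases before to 50 bases after the gene start) were matched for 4 of the 8 genes: MT2A at chr16:56608334-56608633 (plus strand), MT1X at chr16:56682220-56682519 (plus), SLC30A1 at chr1:211579112-211579411 (minus) and MTF1 at chr1:37859543-37859842 (minus), all in GRCh38.p14. These windows are set on RefSeq gene starts, which differ from the GENCODE gene ends given above, so the SLC30A1 window lies upstream of its GENCODE gene and the MT2A window begins inside its own. Each is written 5′ to 3′ along its gene. Capitals mark the metal response element core, searched as TGCACNC and TGCGCNC on both strands, and in MTF1 the ETS motif CGGAAGT, also searched on both strands.
MT2A: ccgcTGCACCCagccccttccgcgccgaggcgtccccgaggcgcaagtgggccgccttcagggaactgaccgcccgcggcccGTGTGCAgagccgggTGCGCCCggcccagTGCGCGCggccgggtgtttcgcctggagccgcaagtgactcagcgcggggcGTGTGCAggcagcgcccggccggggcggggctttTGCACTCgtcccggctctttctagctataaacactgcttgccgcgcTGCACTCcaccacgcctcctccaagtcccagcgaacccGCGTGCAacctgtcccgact
MT1X: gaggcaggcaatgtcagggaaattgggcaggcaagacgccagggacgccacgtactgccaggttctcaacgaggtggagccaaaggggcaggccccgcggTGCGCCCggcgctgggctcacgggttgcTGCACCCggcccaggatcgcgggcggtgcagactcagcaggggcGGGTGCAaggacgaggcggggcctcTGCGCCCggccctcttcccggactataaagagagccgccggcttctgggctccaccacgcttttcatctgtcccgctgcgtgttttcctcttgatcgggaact
SLC30A1: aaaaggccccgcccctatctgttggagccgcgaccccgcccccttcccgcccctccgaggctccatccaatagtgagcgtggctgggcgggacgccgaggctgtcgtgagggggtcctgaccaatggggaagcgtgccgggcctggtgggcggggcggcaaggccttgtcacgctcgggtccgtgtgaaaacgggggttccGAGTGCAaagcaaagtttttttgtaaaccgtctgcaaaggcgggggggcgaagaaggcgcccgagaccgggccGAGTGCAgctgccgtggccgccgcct
MTF1: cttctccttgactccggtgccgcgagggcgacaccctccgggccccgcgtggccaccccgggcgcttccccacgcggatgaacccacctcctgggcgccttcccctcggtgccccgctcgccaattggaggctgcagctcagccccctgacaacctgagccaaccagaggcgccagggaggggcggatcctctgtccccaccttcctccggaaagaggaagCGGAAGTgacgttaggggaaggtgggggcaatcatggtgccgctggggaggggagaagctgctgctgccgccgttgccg
MT2A held 8 metal response element cores, MT1X 4, SLC30A1 2 and MTF1 0, with no overlap between them. Of 35116 promoter windows of the same length, 29.6% held at least 1 core, 8.60% at least 2, 0.601% at least 4 and 0.0199% at least 8. The ETS motif, chosen after the sequences had been read, was found once in MTF1, 29 bases before its start, and in no window of MT2A, MT1X or SLC30A1. It was present in 6.83% of all windows. These are matches of letters and say nothing about binding in these cells.

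No difference was detectable in the measured zinc exporters. Importers with an interval beyond 0 were about as common as among all genes. Most members of the SLC30 family move zinc out of the cytosol, and 5 of the 8 listed members passed the read minimum. For all 5 the interval included 0, as it did for 8018 of all 11659 genes tested, and their median log2 ratio was 0.02. Besides SLC30A1, the most abundant were SLC30A5 (1252 and 1194 reads, log2 ratio -0.06) and SLC30A9 (785 and 735 reads, -0.09).

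The SLC39 family (ZIP transporters) brings zinc into the cytosol, and 12 of its 13 listed members passed the minimum. Of these, 3 had an interval above 0, 2 below it and 7 including it, 0 were 2-fold different, and the median was 0.08. Over all genes 16.5% lay above 0, 14.7% below it, 1.19% and 0.480% were 2-fold higher and lower, and the median was -0.0036. The counts of importers on either side of 0 are near these shares. The most abundant importers were SLC39A1 (4390 and 4080 reads, -0.10, interval -0.16 to -0.04), SLC39A7 (2568 and 2592 reads, 0.02) and SLC39A6 (2604 and 2793 reads, 0.11, 0.03 to 0.19). The other importers with an interval beyond 0, named after their values were seen, were SLC39A13 (196 and 280 reads, 0.52, 0.25 to 0.79), SLC39A14 (1734 and 1994 reads, 0.21, 0.12 to 0.30) and SLC39A3 (577 and 467 reads, -0.30, -0.48 to -0.12). SLC39A14 is a plasma membrane importer known to be induced by interleukin-6 in mouse liver.

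**Figure D5:**
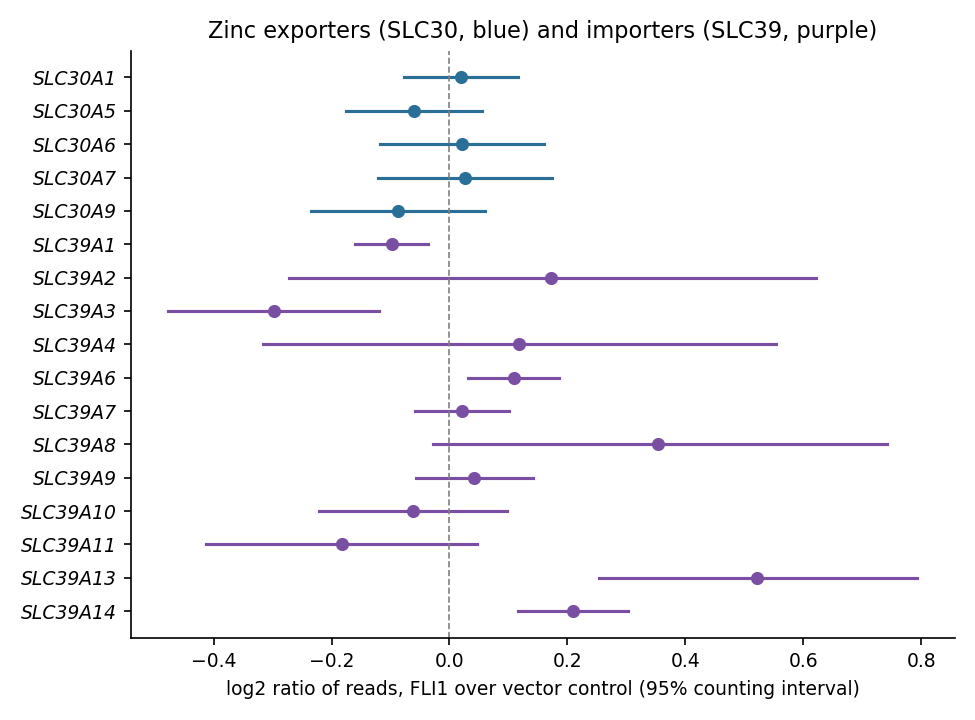
Log2 ratio of reads, FLI1 over vector control, for the zinc exporters (blue) and importers (purple) with at least 20 reads; bars are 95% counting intervals and the dashed line marks 0. All 5 exporter intervals cross 0, and SLC39A13 at 0.52 is the highest importer.

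Other inputs known to reach metallothionein genes were read from lists. In the heavy metal and oxidant stress list, 7 of 10 genes had an interval above 0, 2 below it and 1 including it, with a median of 0.20; over all genes 16.5% lay above 0, 14.7% below it, and the median was -0.0036. HMOX1, heme oxygenase, was the member past 2-fold (1.76), a size that 1.19% of all genes reached in this direction. The 2 lower ones, named after values were seen, were the heat shock genes HSPA1A (-0.17) and HSPA1B (-0.20), near-copies with fractional counts. Of 9 glucocorticoid-responsive genes measured, 2 had an interval above 0, none below it and 7 including it, and the median was -0.03. These 2 of 9 are near the share of all genes above 0 (16.5%; 14.7% lay below). Its most abundant members were ERRFI1 (778 and 1079 reads, 0.48, 0.35 to 0.61), CEBPD (223 and 220 reads, -0.01) and the receptor gene NR3C1 (907 and 884 reads, -0.03). In the cytokine and STAT3 list, 7 of 9 genes had an interval above 0 and 2 included it, with a median of 0.33, against 16.5% above 0 and a median of -0.0036 over all genes. The feedback inhibitor SOCS3 had 42 and 89 reads (1.08, 0.55 to 1.66), and IL1A (1.14) and IL1B (1.05) were also past 2-fold, so 3 of 9 were, against 1.19% of all genes. All of these values come from the same pair of libraries as those of MT2A, MT1E and MT1X, and their part in the metallothionein differences was not tested. The lists were chosen with earlier results of these data known, so their counts beside all genes are descriptive only.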

How the data were processed

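Values came from 2 deposited tables, 1 per gene and 1 per transcript, each covering both HaCaT libraries. Per the file headers they hold read counts, FPKM and TPM. The deposited estimated counts need not be whole, although the design had assumed whole counts, and were rounded first; FPKM and TPM were scaled by the authors. The submitters' processing notes name GRCh38.p13. The transcripts carry RefSeq names. Aligner, counting tool, annotation release and strandedness: not given in the sources used here. Every value column matched a sample.

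Libraries were scaled over all genes by TMM (edgeR 4.0.16, R 4.3.3). A log2 ratio is that of counts plus 0.5. Its 95% interval is exact conditional (Clopper-Pearson) from both counts and covers counting error only. Reads lack molecular identifiers and can be copies of 1 molecule, which the interval does not allow for. Calls were a 2-fold size, or an interval beyond 0. With 1 library per group no p-value was computed. Intervals of shares and of gene pairs are exact. The calculation was tested on simulated Poisson counts. Alternatives were library totals, DESeq2 1.42.0 size factors, FPKM or TPM, other read minimums, unrounded counts and summed transcripts.

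Members and lists were chosen with earlier results of these data known. Named were the listed members, FLI1, other metallothionein genes of the table (0 found of a list of 7, not analysed here), and from each list up to 4 genes past 2-fold or else the 3 with the highest FPKM; exceptions are stated. No genes of a like pattern were sought, since 2 libraries give 1 ratio. Sequences came from GENCODE release 29 and RefSeq (GRCh38.p14).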

Additional observations from a re-analysis of the deposited data

How the results depend on the processing

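Each group holds 1 library, so leaving out a replicate could not be done. No paired analysis was possible because the groups hold 1 library each and the labels number no replicates. Of 95 alternative values, 88 stayed within the counting interval of the reported value with the interval on the same side of 0, within 0.1 of a list median or within 1.5 times a count. Over the alternatives MT2A ranged from 0.22 to 0.29, MT1E from -0.42 to -0.36, MT1X from -0.25 to -0.18 and the metallothionein sum from -0.04 to 0.03. The interval of MTF1 (0.17) included 0 with library totals (0.14, -0.02 to 0.30). Genes at least 2-fold higher and lower (139 and 56) were 49 and 7 at a minimum of 100 reads, 1178 and 847 with no minimum, and 66 and 10 from FPKM with 0.5 added. The first 2 settings test fewer or more low genes, and for FPKM the cause was not tested. Summing only members with whole counts, or every metallothionein gene of the table, took the same 4 genes. MT1F, at 23 reads a library, is limited by depth.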

Other observations

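Copper, the other essential metal that metallothioneins bind, was read from a list of 11 genes, all past the read minimum. The median log2 ratio was -0.07, 1 gene had an interval above 0, 3 below it and 7 including it, and 0 were 2-fold different, where 16.5% of all genes lay above 0 and 14.7% below it. Its most abundant members were SOD1, the copper and zinc superoxide dismutase (1638 and 1518 reads, -0.10, -0.20 to -0.0004), COX17 (266 and 221 reads, -0.26) and ATOX1 (304 and 316 reads, 0.06), both copper chaperones. The other genes with an interval beyond 0, named after values were seen, were SLC31A2 (270 and 352 reads, 0.39, 0.16 to 0.62), related to the copper importer SLC31A1, and the metalloreductase genes STEAP3 (943 and 763 reads, -0.30, -0.44 to -0.16) and STEAP4 (305 and 232 reads, -0.39, -0.64 to -0.14). The importer SLC31A1 itself had 1627 reads in each library. The count of 3 genes below 0 rests on narrow margins, as the interval of SOD1 shows. The upper limits of COX17 (0.003) and of CCS from the same list (0.002) lay just above 0.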
